A study of Mus musculus with 32 samples.

Results

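The mouse Dux cluster is a tandem array of near-identical double homeobox genes on chromosome 10, and 3 of its annotated genes, Duxf3 (also called Dux), AW822073 and Gm10807, are described here across embryos of 8 stage and treatment groups. They were taken by symbol, through the GENCODE M21 names of the deposited gene identifiers, and are 3 of the 55385 genes in each RNA table. The rule itself uses no measured value, but it was set with earlier results of these data known. The study asked how histone acetylation controlled by the acetyltransferases CBP and p300, and by histone deacetylases (HDACs), acts on genome activation after fertilization. RNA was measured in 16 libraries, 2 per group, and open chromatin by ATAC-seq in 4 further groups.

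All embryos analysed were wild type and came from in vitro fertilization of B6D2F1/J oocytes with B6D2F1/J sperm, both from mice 6 to 8 weeks old. Parents of every group were thus F1 hybrids of the same kind, and embryos were cultured in KSOM medium. Times are hours post in vitro fertilization (hpi), counted from the addition of sperm to cumulus-oocyte complexes. A-485, a catalytic inhibitor of CBP and p300, was given at 10 µM from 4 to 20 hpi, against DMSO, with RNA taken in zygotes, at the early 2-cell stage and, after wash-off, at the late 2-cell stage. Trichostatin A (TSA), an inhibitor of HDACs, was given at 50 nM with its own DMSO group, and RNA was taken at the late 2-cell stage. The study's results place the TSA exposure of the embryos taken for RNA at 8 to 28 hpi. Its methods and the labels give an alternative window beside it without tying a sample to either. ATAC-seq was done with A-485 or DMSO at the late 1-cell stage and at the early 2-cell stage. The labels do not say whether the libraries of a group came from separate cultures, so p-values measure only the spread between these libraries, which may be technical.

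DUX is a transcription factor with paired DNA-binding homeodomains, the mouse counterpart of human DUX4, and its genes lie in repeat arrays that are transcribed in a short burst when the embryonic genome first becomes active. The protein binds promoters of cleavage-stage genes, among them the Zscan4 family, and of the endogenous retrovirus MERVL, and it can turn on a 2-cell-like program in embryonic stem cells. Embryos that lack the cluster can still develop, so DUX is regarded as a contributor to genome activation and not its sole driver.

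On GRCm38 the members all lie on the minus strand of chromosome 10. AW822073 (ENSMUSG00000058537.4, protein coding, 1 exon) spans chr10:58222972-58224930, Gm10807 (ENSMUSG00000057216.6, an unprocessed pseudogene of 1 exon and 795 bases) spans chr10:58227857-58228651, and Duxf3 (ENSMUSG00000075046.7, protein coding) spans chr10:58229979-58232675. Duxf3 has 2 annotated transcripts, a spliced one with 2 exons and 1486 bases and a single-exon one of 2025 bases. Aligned to the latter, AW822073 was 98.1% identical over 1959 bases with 37 mismatches, and Gm10807 was 98.7% identical over 795 bases with 10 mismatches. AW822073 and Gm10807 differed at 15 positions. A stretch of 120 exonic bases is shown because it holds positions that tell the copies apart. It is written 5′ to 3′ along the transcripts, and capitals mark the 10 positions at which the members differ, from chr10:58231225-58231344 in Duxf3, chr10:58223546-58223665 in AW822073 and chr10:58228431-58228550 in Gm10807.
Duxf3: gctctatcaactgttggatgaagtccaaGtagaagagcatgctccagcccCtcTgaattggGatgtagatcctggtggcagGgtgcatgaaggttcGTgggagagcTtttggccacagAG
AW822073: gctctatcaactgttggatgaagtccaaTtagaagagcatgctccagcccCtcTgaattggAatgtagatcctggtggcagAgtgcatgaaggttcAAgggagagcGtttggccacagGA
Gm10807: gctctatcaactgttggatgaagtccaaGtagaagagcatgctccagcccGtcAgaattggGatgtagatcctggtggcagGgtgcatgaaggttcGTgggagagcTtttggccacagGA
Gm10807 carried the Duxf3 base at some of these positions, the AW822073 base at others, and a base found in neither at the remaining ones. Of all 75-base windows, the read length of the study, 55.3% of those in the single-exon Duxf3 transcript, 57.9% of those in AW822073 and 27.7% of those in Gm10807 occurred in that gene alone. Reads from the remaining windows fit more than 1 copy and were divided between copies by RSEM's model, so the split between members is less certain than their sum. The array runs into an assembly gap of 343058 bases that ends 17106 bases before AW822073, and copies inside the gap could add reads to the annotated ones. The posterior SD that RSEM gave with each count was 1.55 to 3.69% of the count for Duxf3, 1.82 to 5.76% for AW822073 and 2.94 to 11.6% for Gm10807, in libraries with over 20 counts of the gene.

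Expected counts summed to 13206163 to 32585987 per RNA library (median 22730518). Replicates of each group differed by more than sampling noise (chi-square over degrees of freedom 8.99 to 18.0), so none was counted as a repeat of another. All 6 oocyte markers (such as Zp3 and Gdf9) exceeded 1 FPKM (fragments scaled to transcript length and library size) in every group. The 5 markers of the 2-cell stage are all also in the list of DUX target genes used below, so they are no separate check. The summed FPKM of these markers was 340 to 384 in early 2-cell DMSO embryos and 5.73 to 6.26 with A-485. In late 2-cell embryos that sum was 240 to 241 with DMSO and 42.8 to 57.4 with A-485, and 139 to 169 with DMSO against 337 to 354 with TSA. Cumulus cell markers summed to 0.9 to 6.64 FPKM and sperm markers to 1.25 to 18.9 FPKM. Their part in the results was not tested. In these bulk samples fewer expressing embryos or cells and less RNA per cell cannot be told apart.

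In DMSO-treated embryos all 3 members were detected at every stage, and the level of none of them passed the test between consecutive stages. Duxf3 stood at 7.23 and 6.81 FPKM in the zygote libraries, 5.16 and 4.92 at the early 2-cell stage, 3.22 and 4.29 in the late 2-cell controls of A-485, and 5.69 and 3.31 in those of TSA. AW822073, the second protein-coding copy, read 4.64 and 3.77, then 3.81 and 4.89, then 2.02 and 2.74, and 4.65 and 2.11 FPKM in the same groups. The pseudogene Gm10807 read 3.83 and 5.53, then 5.71 and 2.37, then 1.32 and 3.96, and 2.68 and 1.15 FPKM. From zygote to early 2-cell the libraries of Duxf3 did not overlap and were lower, as for 36.7% of all genes tested, and those of the other members overlapped. From early 2-cell to the late controls of A-485, Duxf3 and AW822073 did not overlap and were lower, as for 32% of genes, whereas no member was free of overlap between early 2-cell and the TSA controls. A gene was called changed where the adjusted p (edgeR's quasi-likelihood test, Benjamini-Hochberg over all genes tested) was under 0.05, the fold change at least 2 and the mean FPKM at least 1 in either group. From zygote to early 2-cell, 0 of 3 members were called, against 26.2% of the genes tested called in either direction. The log2 differences were -0.43 for Duxf3 (adjusted p = 0.148), 0.14 for AW822073 (adjusted p = 0.699) and -0.13 for Gm10807 (adjusted p = 0.850), and 0 had an unadjusted p under 0.05. DESeq2 called 0 of 3 in this and every later comparison in which edgeR called 0 of 3. Scaling to the mitochondrial genes, which moved the median of all genes to -1.18, gave -1.70, -1.12 and -1.43 and called all 3 lower. From early to late 2-cell, 0 of 3 were called with either control group, where 24.8% of genes were called with the controls of A-485 and 29.5% with those of TSA. The log2 differences of Duxf3, AW822073 and Gm10807 were -0.33, -0.87 and -0.66 with the former (adjusted p = 0.460, 0.0679 and 0.494) and -0.01, -0.30 and -0.96 with the latter (adjusted p = 0.990, 0.537 and 0.226). AW822073 had an unadjusted p under 0.05 with the controls of A-485, and 0 of 3 did with those of TSA. Without early 2-cell DMSO replicate 2, Gm10807 was called lower in the controls of TSA, at -1.48 (adjusted p = 0.0336). Between the 2 late 2-cell DMSO groups the members differed by 0.30, 0.55 and -0.33 (adjusted p = 0.745, 0.594 and 0.885), with 0 of 3 called, and 0 at an unadjusted p under 0.05, against 1.32% of all genes called.

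**Figure D1:**
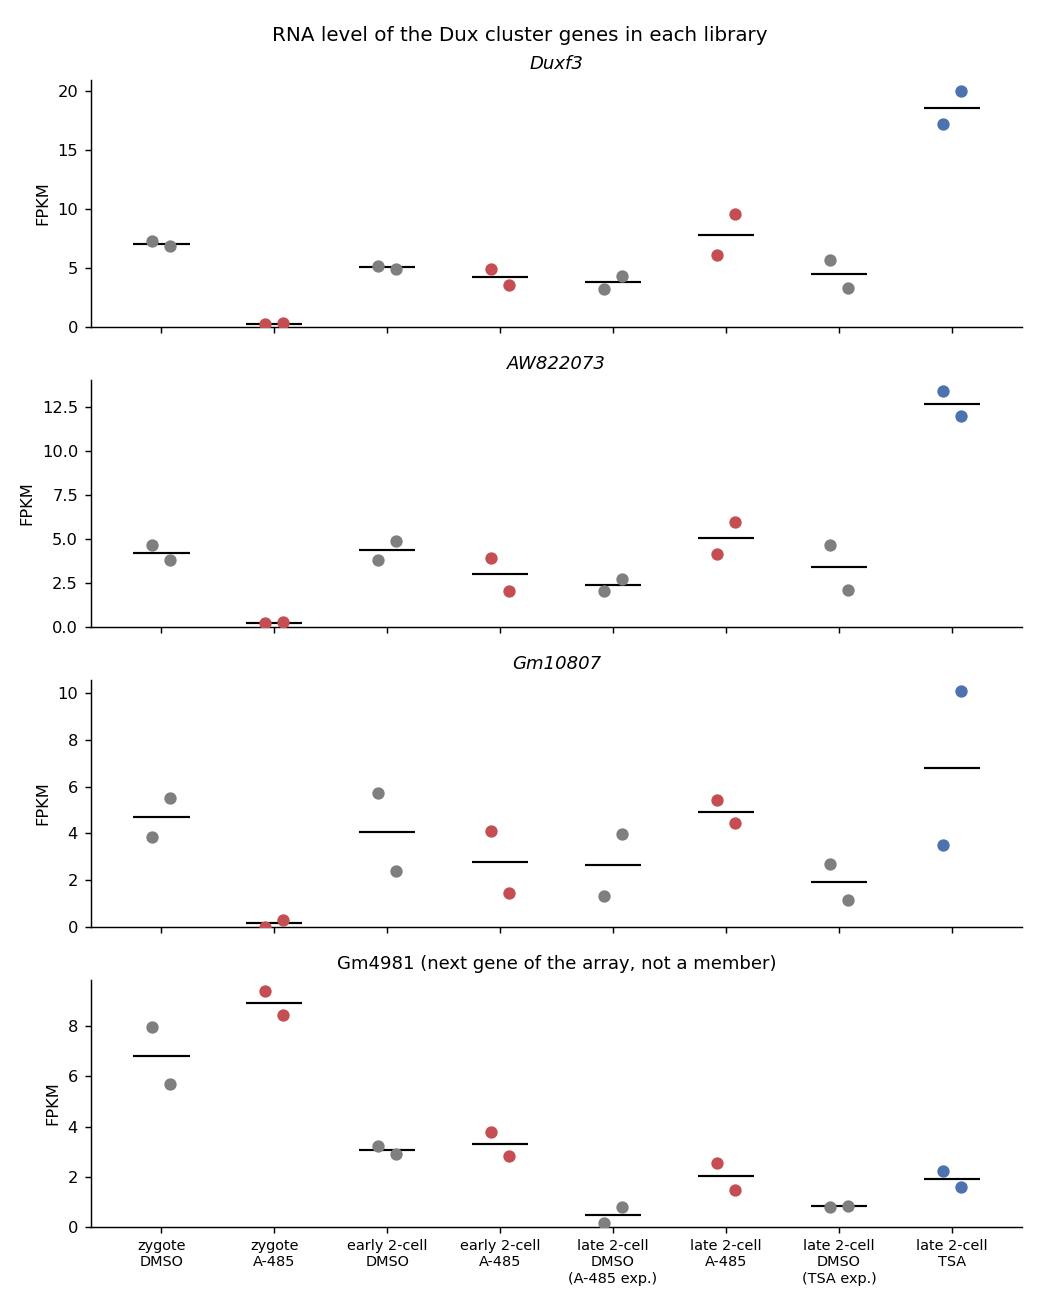
FPKM of Duxf3, AW822073, Gm10807 and the next array gene Gm4981 (vertical axes, linear) in the 8 groups (horizontal axis), with 1 point per library and a bar at the mean of 2 libraries. Each of the 3 members lies at or below 0.29 FPKM in both A-485 zygote libraries, Duxf3 and AW822073 have their highest values with TSA, and Gm4981 stays between 8.47 and 9.40 FPKM in A-485 zygotes.

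In zygotes A-485 lowered all 3 members, from several FPKM to 0.29 FPKM or less. Duxf3 read 0.22 and 0.27 FPKM with A-485 against the DMSO values of 7.23 and 6.81. AW822073 read 0.22 and 0.25 FPKM with A-485, and Gm10807 read 0 and 0.29. No A-485 library overlapped a DMSO library for any member, a pattern that 17.5% of all genes tested showed in the lower direction. All 3 members were called lower, against 0.0657% of the genes tested called lower (12 of 18258) and 0.00548% called higher. Fits without 1 library gave 13 to 45 lower calls over all genes, the most without A-485 replicate 2. The log2 fold change was -4.67 (SE 0.288, adjusted p = 7.29e-06) for Duxf3, -4.41 (SE 0.342, adjusted p = 6.28e-05) for AW822073 and -4.84 (SE 0.796, adjusted p = 0.0378) for Gm10807. Duxf3 and AW822073 had the smallest and second smallest p of all genes, and Gm10807 ranked 17. The other called genes included 3 of the mitochondrial genome, which moved in both directions (mt-Co3 -4.10, mt-Atp6 -1.08, mt-Co2 2.05), and scaling to mitochondrial genes shifted the median of all genes by 0.10 in this comparison. The call of Gm10807 rested on few counts, 6 over both A-485 libraries against 166 over both DMSO libraries, and was lost without zygote DMSO replicate 2 (-4.53, adjusted p = 0.0770). Without A-485 replicate 2, which leaves a lone A-485 library at 0, its fitted value was -9.43. Because the copies share reads, the sum of the members was computed as well, at 55 counts with A-485 and 1251 with DMSO. Scaled to library totals the sum was 24.6-fold lower with A-485 (exact binomial 95% interval 18.8 to 32.9, counting error only), and the same ratio was 25.9 for Duxf3 (17.6 to 39.6), 21.7 for AW822073 (14.1 to 34.9) and 30.0 for Gm10807 (13.5 to 82.8). The intervals overlap, and whether the extent of the fall differed between the members was not tested.

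By the early 2-cell stage, at the end of the exposure, members in A-485 embryos had levels that the test did not separate from DMSO. Duxf3 read 4.88 and 3.57 FPKM with A-485 against 5.16 and 4.92 with DMSO, AW822073 read 3.90 and 2.05 against 3.81 and 4.89, and Gm10807 read 4.10 and 1.45 against 5.71 and 2.37. A-485 replicate 2 was the lower library for each member, and only Duxf3 did not overlap between the groups, as 28.5% of genes did not in the lower direction. Of the 3 members 0 were called, and 0 had an unadjusted p under 0.05, against 7.9% of the genes tested called lower and 0.402% called higher. The log2 fold change was -0.24 for Duxf3 (95% interval -0.85 to 0.37, adjusted p = 0.667), -0.52 for AW822073 (-1.27 to 0.22, adjusted p = 0.392) and -0.51 for Gm10807 (-1.88 to 0.86, adjusted p = 0.690). The intervals include falls of more than 2-fold for AW822073 and Gm10807, but none reaches the fall measured in zygotes. For Gm10807 the sign turned without A-485 replicate 2 (0.07) or without DMSO replicate 1 (0.28).

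Within A-485-treated embryos the members rose steeply from the zygote to the early 2-cell stage. All 3 were called higher, against 6.85% of the genes tested called higher. Duxf3 rose 17.0-fold (log2 4.09, SE 0.411, adjusted p = 2.86e-06), AW822073 17.3-fold (log2 4.11, SE 0.497, adjusted p = 1.60e-05) and Gm10807 19.4-fold (log2 4.28, SE 1.12, adjusted p = 0.00716). The call of Gm10807 was lost under mitochondrial scaling (2.77, adjusted p = 0.0703) and without early 2-cell A-485 replicate 1 (3.35, adjusted p = 0.147), and its value was 8.55 without zygote A-485 replicate 2. The difference between the A-485 effects at the 2 stages was tested directly, as an interaction term over the 8 libraries. It was 4.48 for Duxf3 (SE 0.447, adjusted p = 8.09e-07), 3.94 for AW822073 (SE 0.543, adjusted p = 5.05e-05) and 4.38 for Gm10807 (SE 1.12, adjusted p = 0.0205), on the log2 scale, and all 3 were called, against 0.313% of genes called in that direction. For Gm10807 this call was lost without any of 5 of the 8 libraries: 3.43 (adjusted p = 0.132) without early 2-cell A-485 replicate 1, 3.87 (0.0720) without early 2-cell DMSO replicate 2, 3.42 (0.0953) without zygote A-485 replicate 1, and 4.62 (0.0585) and 4.09 (0.122) without zygote DMSO replicates 1 and 2. Without zygote A-485 replicate 2 it was 8.66.

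**Figure D2:**
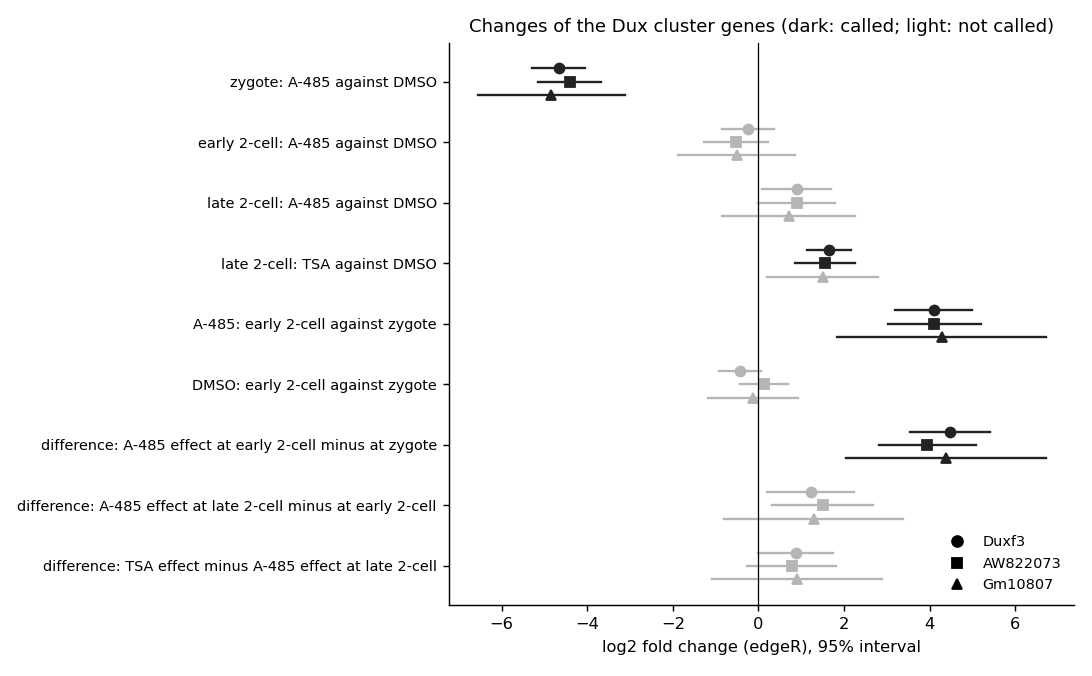
Fitted log2 fold changes (horizontal axis) of the 3 members in 9 comparisons between groups (vertical axis), with 95% intervals from edgeR's quasi-likelihood fit, where dark points were called changed and pale points were not. The zygote A-485 comparison lies between -4.84 and -4.41, the rise within A-485 embryos between 4.09 and 4.28, and the TSA comparison between 1.50 and 1.65.

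At the late 2-cell stage, after A-485 had been washed off, all 3 members read higher in A-485 embryos than in DMSO embryos, but none passed the test. Duxf3 read 6.04 and 9.56 FPKM with A-485 against 3.22 and 4.29 with DMSO. AW822073 read 4.16 and 5.94 against 2.02 and 2.74, and Gm10807 5.41 and 4.43 against 1.32 and 3.96. The groups did not overlap for any member, and the same was true, in this direction, of 42.3% of all genes tested. Of the 3 members 0 were called, with Duxf3 at an unadjusted p under 0.05, against 10.5% of genes called higher and 16.8% called lower. The log2 fold change was 0.89 for Duxf3 (95% interval 0.09 to 1.69, adjusted p = 0.0771), 0.89 for AW822073 (-0.01 to 1.79, adjusted p = 0.111) and 0.70 for Gm10807 (-0.85 to 2.25, adjusted p = 0.462), where the median of all genes tested was 0.28. Scaled to total counts, which moved that median to 0.47, Duxf3 was called higher at 1.08 (adjusted p = 0.0364), and it was also called without late 2-cell A-485 replicate 1, at 1.19 (adjusted p = 0.0115). Mitochondrial scaling moved the median of all genes to -0.35. The mitochondrial share of counts was 19.5 and 20.7% in these A-485 libraries against 12.3 and 10.5% with DMSO, and the 6 oocyte markers, none at 0, summed to 1378 to 1394 FPKM against 729 to 782. Their part in the differences at this stage was not tested. From early to late 2-cell within A-485 embryos, 0 of 3 were called against 19.9% of genes in either direction, with log2 differences of 0.72, 0.46 and 0.48 (adjusted p = 0.101, 0.393 and 0.627), of which that of Duxf3 had an unadjusted p under 0.05. Duxf3 was called there under total count scaling (1.01, adjusted p = 0.0241) and without late 2-cell A-485 replicate 1 (1.04, adjusted p = 0.00970). The interaction of the A-485 effect at the late against the early 2-cell stage was 1.22 for Duxf3 (95% interval 0.20 to 2.24, adjusted p = 0.0889), 1.50 for AW822073 (0.32 to 2.68, adjusted p = 0.0680) and 1.29 for Gm10807 (-0.80 to 3.38, adjusted p = 0.435), with 0 of 3 called, and 2 at an unadjusted p under 0.05, against 15% of genes called. Without late 2-cell A-485 replicate 1 the interaction was called for Duxf3 (1.52, adjusted p = 0.0310) and AW822073 (1.75, adjusted p = 0.0365), and AW822073 was also called without early 2-cell A-485 replicate 1 (2.02, adjusted p = 0.0356) and under total count scaling (1.63, adjusted p = 0.0462).

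With TSA the group means of all 3 members were the highest of the series. Duxf3 read 17.23 and 19.97 FPKM with TSA against 5.69 and 3.31 with DMSO, and AW822073 read 13.41 and 12.00 against 4.65 and 2.11. Gm10807 read 3.52 and 10.08 FPKM with TSA against 2.68 and 1.15. The TSA libraries lay above the DMSO libraries for all 3 members, as they did for 50.5% of all genes tested, and the TSA libraries of Gm10807 lay far apart. Of the 3 members 2 were called higher, against 13.8% of genes called higher and 13.9% called lower. Duxf3 rose 3.14-fold (log2 1.65, SE 0.229, adjusted p = 0.000165) and AW822073 2.93-fold (log2 1.55, SE 0.314, adjusted p = 0.00221). The mitochondrial share was 15.5 and 16.3% with TSA against 12.5 and 12.0% with DMSO, and the oocyte markers summed to 717 to 746 against 559 to 580 FPKM, and their part in this rise was not tested. Gm10807, at log2 1.50 (95% interval 0.21 to 2.79, adjusted p = 0.0600), was not called. DESeq2 did not call it either (log2 1.51, adjusted p = 0.0798). It was called under total count scaling (1.85, adjusted p = 0.0215), mitochondrial scaling (1.47, adjusted p = 0.0428) and without a filter on low counts (1.50, adjusted p = 0.00322). A fit with the replicate number as a block called it too (1.39, adjusted p = 0.0161), as did the fits without TSA replicate 1 (2.08, adjusted p = 0.00618) and without DMSO replicate 1 (2.24, adjusted p = 0.0282). Its value was 0.54 (adjusted p = 0.582) without TSA replicate 2 and 1.03 (adjusted p = 0.219) without DMSO replicate 2. The sum of the members was 2187 counts with TSA and 762 with DMSO, a ratio of 3.84 after scaling to library totals. Its exact binomial 95% interval, 3.54 to 4.18, covers counting error only and leaves out the spread between libraries. A-485 and TSA were given over different windows. Their effects at the late 2-cell stage, each against its own control, differed by 0.87 for Duxf3 (95% interval -0.01 to 1.75, adjusted p = 0.185), 0.77 for AW822073 (-0.27 to 1.82, adjusted p = 0.343) and 0.90 for Gm10807 (-1.09 to 2.90, adjusted p = 0.609), with 0 of 3 called, and 0 at an unadjusted p under 0.05, against 13.5% of genes called. Under mitochondrial scaling this difference was called for Duxf3 (1.40, adjusted p = 0.0301).

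Ranked by group mean, Duxf3 ran from 18.6 ± 1.94 FPKM (SD, n = 2) with TSA through 7.80 ± 2.49 in late 2-cell A-485 embryos, 7.02 ± 0.297 in DMSO zygotes, 5.04 ± 0.170 in early 2-cell DMSO embryos, 4.50 ± 1.68 in the TSA controls, 4.23 ± 0.926 in early 2-cell A-485 embryos and 3.76 ± 0.757 in the late 2-cell controls of A-485 to 0.245 ± 0.0354 in A-485 zygotes. The libraries of neighbours in that order overlapped in 4 of 7 pairs. AW822073 ran from 12.7 ± 0.997 FPKM with TSA to 0.235 ± 0.0212 in A-485 zygotes, with 5 of 7 neighbouring pairs overlapping. Gm10807 ran from 6.80 ± 4.64 to 0.145 ± 0.205 FPKM between the same end groups, and 6 of its 7 neighbouring pairs overlapped. Over the 16 libraries log2(FPKM + 0.1) of Duxf3 correlated with that of AW822073 (Pearson's r 0.9885) and of Gm10807 (r 0.9134), and AW822073 with Gm10807 (r 0.893). These points share libraries, and the members share reads that RSEM divided between them. Duxf3 made up 42.0 to 55.7% of the summed counts of the members over the libraries, AW822073 31.7 to 51.2% and Gm10807 0 to 18.9%.

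The sum of the members, which does not depend on how reads were divided between them, was computed in each library. It was 21.5 and 20.8 CPM (counts scaled to the library total) in the DMSO zygote libraries and 0.737 and 0.951 with A-485. At the early 2-cell stage it was 18.0 and 17.4 with DMSO and 16.6 and 9.91 with A-485. In late 2-cell embryos it was 9.45 and 14.2 with DMSO and 20.3 and 28.5 with A-485, and 19.2 and 10.3 with DMSO against 54.7 and 59.6 with TSA. The A-485 zygotes lay below every other group and the TSA embryos above every other group.

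Duxf3 has a spliced and a single-exon annotated form, and the mean transcript length that the authors deposited gives the share of each that RSEM assigned. The single-exon transcript took 42.1 and 54.3% in the DMSO zygote libraries and 72.6 and 85.9% with A-485, where Duxf3 had 27 counts in all. It took 45.8 and 35.4% in early 2-cell DMSO embryos and 38.4 and 40.9% with A-485. In late 2-cell embryos the shares were 55.9 and 65.4% with DMSO and 70.0 and 66.0% with A-485, and 49.6 and 73.9% with DMSO and 58.4 and 42.4% with TSA. The TSA controls alone lay as far apart as 49.6 and 73.9%, and no test was run on these shares.

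The next annotated gene of the array, Gm4981 (chr10:58234848-58236701), was 81.5% identical to the single-exon Duxf3 transcript over 1111 aligned bases. To the spliced Duxf3 transcript it was 90.3% identical over 1290 aligned bases, and 95% of its 75-base windows occurred in it alone. Its level did not follow that of the members in A-485 zygotes. Gm4981 read 9.40 and 8.47 FPKM with A-485 against 7.99 and 5.68 with DMSO, a log2 fold change of 0.39 (SE 0.182, adjusted p = 0.830). It was not called at the early 2-cell stage (0.13, adjusted p = 0.852) or at the late 2-cell stage with A-485 (1.95, adjusted p = 0.0955) or TSA (0.88, adjusted p = 0.116). It was called at the late 2-cell stage with A-485 without A-485 replicate 2 (2.31), without DMSO replicate 2 (3.67) and in a fit of all 16 libraries (2.00), and with TSA under total count scaling (1.23, adjusted p = 0.0320). Gm19459, the last annotated gene of the array, read between 0 and 0.33 FPKM in all libraries. Within 500 kb of the members, 12 other annotated genes, array genes included, had at least 10 counts summed over the 16 libraries. Of these, 8 could be tested in zygotes and 0 were called by edgeR, or had an unadjusted p under 0.05. The nearest of them outside the array, Gcc2, encodes a Golgi coiled-coil protein and lies 22.8 kb away. It read 24.2 FPKM with DMSO and 24.9 with A-485 in zygotes (log2 0.05). At the early 2-cell stage 0 of 10 were called, and 1 had an unadjusted p under 0.05. With A-485 at the late 2-cell stage 3 of 11 were called, Pkib (2.22) and Ccdc138 (1.32) higher and Ranbp2 (-2.02), a nuclear pore component, lower, beside 10.5% of all genes called higher and 16.8% lower. The calls of Pkib and Ccdc138 were both lost under mitochondrial scaling (1.52 and 0.67) and without late 2-cell DMSO replicate 1, where they were at 1.51 and 1.10 (adjusted p = 0.121), and that of Ccdc138 also without late 2-cell A-485 replicate 1 (1.13, adjusted p = 0.0871). With TSA 3 of 10 were called, Edar (2.57) and BB019430 (4.71) higher and Ranbp2 (-2.42) lower, beside 13.8% of all genes called higher and 13.9% lower.

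Open chromatin at the cluster was read from the peak lists of the 4 ATAC-seq groups, each made from both replicates together, so no replicate error is available and no test was run. Within 10 kb of the members, the 5′ part of Duxf3 was the only place at which every list held a peak. In late 1-cell embryos the peak spanned chr10:58231778-58233679 with DMSO and chr10:58231773-58233657 with A-485, and both covered the RefSeq start of Duxf3 at base 58233089. In early 2-cell embryos it spanned chr10:58231732-58233034 with DMSO and chr10:58231688-58232996 with A-485, and neither reached that base. All 4 peaks covered the GENCODE starts of the single-exon and the spliced Duxf3 transcript, at bases 58232675 and 58232013. The 4 peaks shared 1219 bases and their highest summits lay within 263 bases of each other, inside the gene. A window of 100 bases on each side of the highest late 1-cell A-485 summit, chr10:58232101-58232301, is given 5′ to 3′ along the gene. It is coding in the single-exon transcript of Duxf3 and lies within the bases shared by the 4 peaks. The highest summit of the early 2-cell DMSO peak, at base 58231941, lies outside this window.
Duxf3 peak centre: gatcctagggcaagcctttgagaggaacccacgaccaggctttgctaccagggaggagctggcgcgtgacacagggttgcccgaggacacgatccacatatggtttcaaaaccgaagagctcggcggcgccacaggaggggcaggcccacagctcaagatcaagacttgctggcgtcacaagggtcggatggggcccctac
The matching stretch of AW822073 differed at 1 position (99.5% identical over 199 bases), yet no peak was listed there, and the Gm4981 counterpart was 89.9% identical. How reads that fit several copies were handled in the ATAC-seq alignment is not given in the sources used here, so the listed peak may hold reads from other copies.

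At the late 1-cell stage, the ATAC-seq stage nearest to the zygote RNA libraries, the listed enrichment of the Duxf3 peak was higher with A-485 than with DMSO, where the RNA of the members was lower. Its fold enrichment over background was 7.51 with DMSO (-log10 q 239) and 11.5 with A-485 (-log10 q 301). It ranked 3637 of 10214 peaks with DMSO and 154 of 7094 with A-485, which is the top 35.6% and the top 2.17%. The ratio of A-485 to DMSO was 1.53, above that of 98.3% of the 4979 peaks shared by both lists, whose median ratio was 0.968. At the early 2-cell stage the fold enrichment was 6.60 with DMSO (-log10 q 49.7, rank 20848 of 27693) and 6.79 with A-485 (-log10 q 66.1, rank 9144 of 13712). The ratio was 1.03 there, above that of 54.5% of 5984 shared peaks, whose median was 1.00. The lists with A-485 held fewer peaks at both stages. In the same 10 kb windows the lists held 4 peaks in each late 1-cell group, and 1 with DMSO and 2 with A-485 at the early 2-cell stage. The others were weaker than the Duxf3 peak, with fold enrichments of 2.72 to 4.57, and none overlapped AW822073, Gm10807 or Gm4981. However, every list but that of early 2-cell DMSO held a peak just before the start of Gm4981 at base 58236701. The lower edges of these peaks lay between bases 58236763 and 58236801.

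**Figure D3:**
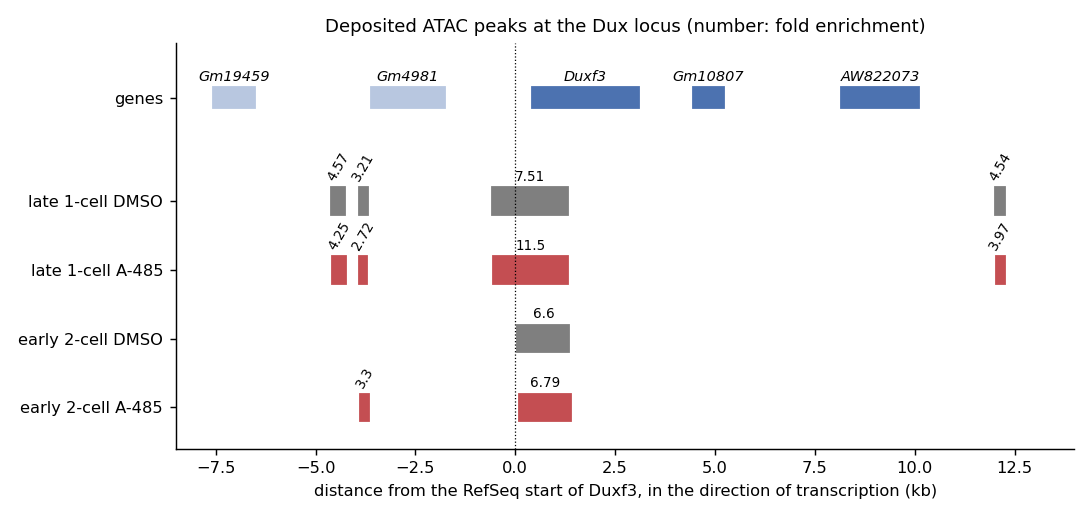
ATAC-seq peaks around Duxf3 in the 4 groups (rows) by distance from the RefSeq start of Duxf3 in kb, in the direction of transcription (horizontal axis), with each bar drawn over the extent of a peak and labelled with its fold enrichment. A peak over the 5′ part of Duxf3 is present in every row, at 7.51 and 11.5 without and with A-485 in late 1-cell embryos and at 6.60 and 6.79 in early 2-cell embryos.

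The bases before the RefSeq start of Duxf3 are shown because the late 1-cell peaks reached into them and the early 2-cell peaks did not. The GENCODE starts of Duxf3, further along the gene, lay inside the peak at both stages. The 250 bases before the RefSeq start (RefSeq, GRCm38, chr10:58233090-58233339, minus strand, 5′ to 3′) hold 1 match to TGATTNAAT, the core of the motif bound by DUX, in capitals, 140 bases before the start.
Duxf3 promoter: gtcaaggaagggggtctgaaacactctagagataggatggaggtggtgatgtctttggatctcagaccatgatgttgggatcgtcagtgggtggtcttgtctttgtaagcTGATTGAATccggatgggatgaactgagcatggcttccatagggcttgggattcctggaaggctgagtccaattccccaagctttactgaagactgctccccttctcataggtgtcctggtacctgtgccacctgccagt
Both strands were searched for TGATTNAAT, TATAAA and CCAAT, none of which overlap in this window. The window held 1 CCAAT and no TATAAA, and none of the motifs occurred in the peak centre printed above. Of 32851 promoter windows of RefSeq, 0.658% held TGATTNAAT, 12.4% TATAAA and 33.8% CCAAT. The GC content of the Duxf3 promoter was 51.2%, near the median of 52.4% over all promoters. A match is a description of the letters and does not show binding.

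The genes that DUX is known to activate were followed with a list of 33, drawn up from general knowledge with earlier results of these data known. In DMSO embryos most of them first reached 1 FPKM at the early 2-cell stage, when the members had already been present in zygotes. The list held 12 and 9 genes at 1 FPKM or more in the DMSO zygote libraries, and 33 and 32 in the early 2-cell libraries, while Duxf3 read 7.23 and 6.81 and then 5.16 and 4.92 FPKM. From zygote to early 2-cell, 31 of 33 were called higher and 1 lower, with a median log2 difference of 7.06 against 0.08 for all genes tested. Of all 20106 genes tested in this step, 2257 were called higher and 3002 lower. From the early to the late 2-cell stage in the controls of A-485, 4 were called higher and 15 lower. Over all 20326 genes tested there, 3238 were called higher and 1813 lower.

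Against DMSO, the members and the listed targets parted in A-485 embryos at the 2-cell stages. In A-485 zygotes the members fell and the median of the targets was lower too. In zygotes 7 and 7 targets reached 1 FPKM, and 2 of the 24 that could be tested were called lower, with a median log2 fold change of -1.77 against -0.01 for all genes, or -1.21 with the 3 genes at 0 set to a bound of 3 counts per library. Over all genes 0.0657% were called lower. The summed FPKM of the list in zygotes was 242 ± 18.9 with DMSO and 222 ± 4.59 with A-485 (SD, n = 2). The median was -0.82 over 20 tested genes without zygote DMSO replicate 1, -1.29 without A-485 replicate 1, and -2.03 and -2.06 without the other libraries. The called ones were Usp17lc, from 4.00 to 0.560 FPKM (log2 -2.83, adjusted p = 0.000315), and Usp17ld, from 2.74 to 0.185 (log2 -3.88, adjusted p = 0.00127), both deubiquitinase genes and both named after their values were seen. At the early 2-cell stage, with the members not called, 32 of 33 targets were called lower, against 7.9% of all genes, and the exception, AA792892, differed by -0.09. The median was -6.86 against 0.00 for all genes, or -6.68 with the 1 gene at 0 at its bound. Zscan4f, a zinc finger gene of the 2-cell stage, read 230.72 and 195.56 FPKM with DMSO and 0.39 and 0.00 with A-485. Tdpoz1 and Tdpoz5, which encode TRAF and BTB domain proteins, read 20.15 and 29.90, and 43.13 and 42.33 FPKM, with DMSO, and at most 0.03 and 0.13 with A-485. The summed FPKM of the list was 1779 ± 57.7 with DMSO and 93.5 ± 1.70 with A-485 (SD, n = 2).

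In late 2-cell embryos, where the members read higher with A-485 without passing the test, 28 of 32 targets were called lower, against 16.8% of all genes, with a median of -2.47 against 0.28 for all genes. Usp17lb (-4.97), Ubtfl1 (-4.44) and B020004J07Rik (-4.13) were among them. Within A-485 embryos 6 of 26 targets were called higher and 2 lower from the zygote to the early 2-cell stage, where all 3 members rose. Their median log2 difference was 1.99 against 0.14 for all 19858 genes tested, of which 1360 were called higher and 3103 lower. From the early to the late 2-cell stage 21 of 32 were called higher and 1 lower, where no member was called. The median was 2.61 against 0.31 for all 22854 genes tested, of which 2915 were called higher and 1634 lower. Both steps use the same early 2-cell libraries. With TSA, where 2 of 3 members rose, 17 of 33 targets were called higher and 1, Ubtfl1 (-2.41), lower, against 13.8% and 13.9% of all genes, with a median of 1.17 against 0.13 for all genes. Gm5039 (3.42) and BB287469 (3.29) rose, and Gm6763 read 0.04 and 0 FPKM with DMSO and 8.15 and 9.37 with TSA. The summed FPKM of the list was 839 ± 83.2 with DMSO and 2239 ± 174 with TSA.

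**Figure D4:**
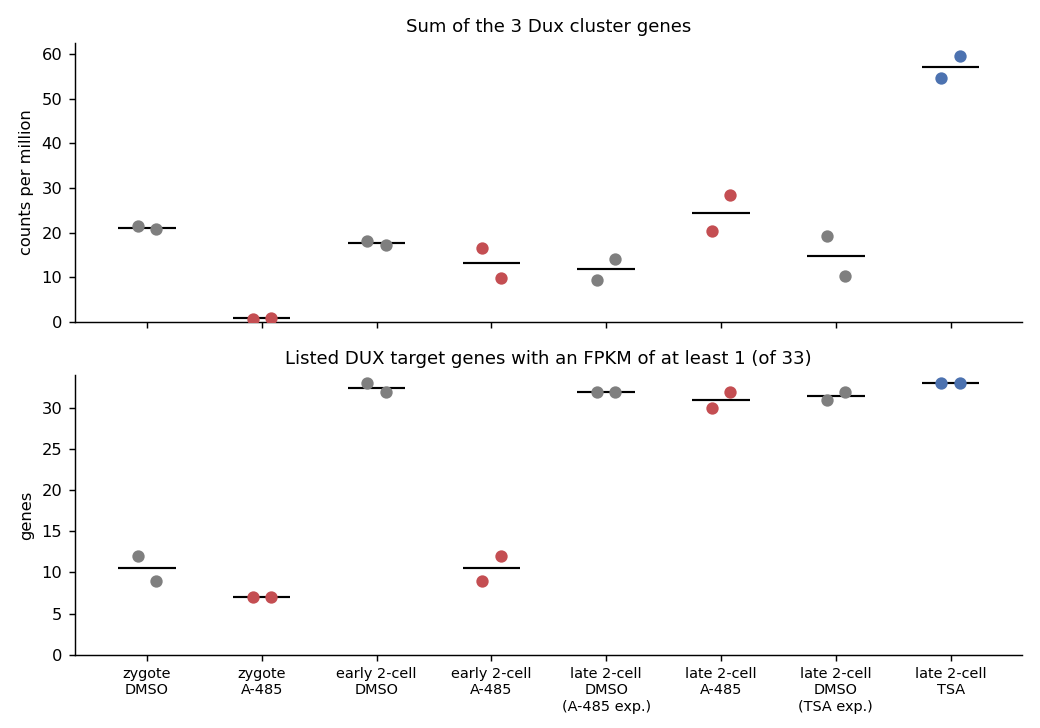
Summed CPM of the 3 members (first panel) and number of the 33 listed DUX target genes at 1 FPKM or more (second panel) in the 8 groups, with 1 point per library, bars at the mean of 2 libraries and linear axes. A-485 zygotes have a member sum of 0.737 and 0.951, and early 2-cell A-485 embryos have member sums of 16.6 and 9.91 with 9 and 12 targets.

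Of 9 genes known to promote Dux expression, among them Dppa2 and Dppa4, which encode chromatin proteins that bind the locus, 0 were called in A-485 zygotes, where the members fell (median -0.01, 0 by DESeq2 and 0 at an unadjusted p under 0.05). The list had 2 called lower at the early 2-cell stage, Dppa4, from 36.13 and 31.43 to 0.84 and 1.75 FPKM (log2 -4.12), and the homeobox gene Obox3 (-8.02), where 7.9% of all genes were called lower. At the late 2-cell stage 4 were called lower with A-485 (Dppa2 -2.99, Dppa4 -3.36, Obox3 -5.18) and 4 with TSA (Dppa2 -3.59, Dppa4 -3.16, Obox3 -1.96), where 16.8% and 13.9% of all genes were called lower, and 0 of the list were called higher by edgeR. With TSA, this fall stood beside higher Duxf3 and AW822073.

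Of 22 genes known to restrain Dux or the 2-cell program, such as Trim28, a corepressor that silences repeats, 0 were called in A-485 zygotes (median 0.03, 0 by DESeq2 and 1 at an unadjusted p under 0.05). At the early 2-cell stage 4 were called lower with A-485, including Trim28 (-1.41), the SUMO gene Sumo2 (-1.86) and L3mbtl2 (-1.18), a Polycomb complex subunit, whose call was lost without A-485 replicate 1 (-0.96). Later, in late 2-cell embryos, 13 were called lower with A-485 (Trim28 -3.80, L3mbtl2 -3.43, Sumo2 -3.25) and 2 higher, E2f6 (2.25) and Max (1.15). With TSA 10 were called lower and 0 higher, with Sumo2 at -4.24, Pcgf6 at -2.57 and Mga at -2.13, the last 2 being subunits of a variant Polycomb complex. The medians were -0.17, -1.37 and -0.92 in these 3 comparisons, against 0.00, 0.28 and 0.13 for all genes, of which 7.9%, 16.8% and 13.9% were called lower.

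The other annotated double homeobox genes, Duxbl1, Duxbl2 and Duxbl3, lie outside the cluster and are near-identical copies of each other, so their values are uncertain. In A-485 zygotes 0 of 3 were called by edgeR or DESeq2, and 1 had an unadjusted p under 0.05. Duxbl3 was called lower at the early 2-cell stage (-2.40, adjusted p = 0.0379), beside 7.9% of all genes. Its DMSO libraries there read 5.68 and 31.01 FPKM, and the value was -0.32 without early 2-cell DMSO replicate 2. Its call was also lost under total count scaling (-2.43, adjusted p = 0.0639) and in a fit of all 16 libraries (-2.35, adjusted p = 0.0816). At the late 2-cell stage with A-485 Duxbl2 was called lower (-3.09) and Duxbl3 higher (2.88), beside 16.8% and 10.5% of all genes. With TSA 2 of 3 were called lower, with Duxbl2 at -2.84, beside 13.9% of all genes called lower. Duxbl2 was at -5.51 with A-485 without late 2-cell A-485 replicate 2 and at -5.67 with TSA without TSA replicate 2, and at -2.23 and -1.94 without replicate 1 of the respective inhibitor. DESeq2 did not call Duxbl3 at the early 2-cell stage (adjusted p = 0.279) or Duxbl2 at the late 2-cell stage with A-485 (adjusted p = 0.0592) or TSA (adjusted p = 0.111).

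The genes whose pattern was most like that of Duxf3 were ranked by Pearson's r of log2(FPKM + 0.1) over the 16 libraries, among 12166 genes with a mean of at least 5 FPKM in some group. The highest were Gm8947 (r 0.846), Lin7b (0.835), which encodes a PDZ scaffold protein, Gm47985 (0.815), Gm33778 (0.813) and mt-Atp6 (0.802), a mitochondrial ATP synthase subunit. Gm8947 read 2.22 and 2.32 FPKM in DMSO zygotes, 0.17 and 0.18 with A-485, and 31.55 and 34.34 in TSA embryos. It parted from Duxf3 at the early 2-cell stage, with 6.63 and 7.63 FPKM with DMSO against 0.9 and 0.44 with A-485. These correlations describe points that share libraries and treatments.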

How the data were processed

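RNA was profiled with a stranded total RNA kit (SMART-Seq, paired 75-base reads) in 16 libraries, 2 per group, and open chromatin by ATAC-seq with 1 peak list per group for 4 groups. The authors removed the first bases of read 2, trimmed with Trimmomatic 0.39, aligned to GRCm38 with STAR 2.7.8a and quantified genes with RSEM 1.3.1, which divides reads that fit several copies by a model. The deposited expected counts are those estimates, not normalized, and the deposited FPKM values are the same counts scaled to effective transcript length and to the fragments of the library. The deposited tables also give the effective length, the mean transcript length and the posterior SD of each count. ATAC-seq reads were run by the authors through the ENCODE pipeline, which kept peaks reproducible over both replicates, and the handling of reads with several matches is not given in the sources used here. The deposited peak lists give the fold enrichment over background as a ratio, -log10 p (not used) and -log10 q, and a score from the reproducibility test, also not used. The H3K27ac profiles of the series were not analysed here.

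Gene identifiers were matched to GENCODE M21 symbols (55144 matched). Expected counts were rounded, genes were kept where the fitted libraries held 10 counts or more together, and groups were compared by edgeR 4.0.16 (R 4.3.3), with TMM normalization, the quasi-likelihood F test and Benjamini-Hochberg adjustment over all genes tested. Fold changes use a prior count of 0.125. Calls required a mean FPKM of 1 or more in a group compared, a 2-fold change or more, and adjusted p below 0.05. Standard errors are the fold change over the square root of F, and intervals cover 95%. Each comparison used only its own libraries, and differences between effects were interaction terms. Alternatives were DESeq2 1.42.0, scaling to total counts or to mitochondrial genes, no filter, all 16 libraries in 1 fit, no FPKM cutoff, the replicate number as a block, and leaving out each library. The procedure was tested on simulated data. Overlapping peak summits were joined, and peaks count as shared at an overlap of 50% of the shorter. Sequences come from GRCm38 and RefSeq (promoters), and were compared with BLAST 2.17.0. Depth was 13206163 to 32585987 counts per library, and counting intervals cover counting error only.

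The labels do not say whether libraries with the same replicate number shared a litter or day. The correlation of same-numbered libraries' deviations from their group means was -0.0330 to 0.0712, and 0.500 for the TSA pair, over 2 pairs each. Numbers were not taken to pair samples in the main fits, and the replicate block was the alternative that used them. Whether TSA libraries and their controls shared a batch by number was not tested. The members, the lists of related genes and the tests were chosen with earlier results of these data known. Besides the members, the genes named are, from each list and inhibitor comparison, at most the 3 called genes with the largest change and at least 5 FPKM in the higher group, the genes within 500 kb, and the 5 genes most correlated with Duxf3. Named outside this rule, after their values were seen, are Usp17lc, Usp17ld, AA792892, Ubtfl1 with TSA, E2f6, Max and the mitochondrial genes called in zygotes. Markers of oocytes, 2-cell embryos, cumulus cells and sperm were also drawn up from general knowledge.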

Additional observations from a re-analysis of the deposited data

Results flagged for a closer look

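The effect of A-485 on each member of the Dux cluster differed between the zygote and the early 2-cell stage by the test of the difference itself, an interaction term over 8 libraries in edgeR's quasi-likelihood fit. The A-485 effect at the early 2-cell stage minus that in zygotes was 4.48 on the log2 scale for Duxf3 (adjusted p = 8.09e-07), 3.94 for AW822073 (adjusted p = 5.05e-05) and 4.38 for Gm10807 (adjusted p = 0.0205). For Duxf3 and AW822073 the call held in each fit that left out 1 of the 8 libraries, with values of 4.22 to 4.70 and 3.37 to 4.35. For Gm10807 it held in 3 of these 8 fits, with values of 3.42 to 8.66, and the highest is the fit without zygote A-485 replicate 2, which leaves a lone A-485 zygote library at 0 counts.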

How the results depend on the processing

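The 39 fold changes of the members gave 465 values under the alternatives, of which 418 kept their direction and their side of the threshold. The counts of members called in A-485 zygotes, in the rise within A-485 embryos and in the interaction of these stages stayed at 2 to 3 of 3 in fits without 1 library, and with TSA at 2 to 3. A lone library left in a group was taken to vary like the others.

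Scaling to total counts called 1 member, not 0, at the late 2-cell stage with A-485, from early to late 2-cell within A-485 embryos and in the interaction of these stages. Mitochondrial scaling called 3, not 0, between DMSO stages of zygote and early 2-cell, where AW822073 turned to -1.12, and 1, not 0, for TSA against A-485. Within A-485 embryos it turned AW822073 to -0.084 and Gm10807 to -0.052 from early to late 2-cell. Without a filter Duxf3 turned to 0.0059 in the TSA controls against early 2-cell. In fits without 1 library, counts ran from 0 to 1 at the late 2-cell stage with A-485 (1 without A-485 replicate 1), within A-485 embryos from early to late 2-cell (1 without late 2-cell A-485 replicate 1) and in the TSA controls against early 2-cell (1 without early 2-cell DMSO replicate 2), and from 0 to 2 in the late 2-cell interaction (2 without late 2-cell A-485 replicate 1, 1 without early 2-cell A-485 replicate 1). The fold changes that changed sign without 1 library were not called. Gm10807 ran from -1.46 to 0.28 with A-485 at early 2-cell, -0.91 to 0.39 between the first DMSO stages, -1.57 to 0.14 in late against early DMSO embryos, -0.092 to 1.43 within A-485 embryos, -1.06 to 0.60 between DMSO groups and -0.12 to 1.63 for TSA minus A-485. AW822073 ran from -0.027 to 0.30 between the first DMSO stages, -0.97 to 0.15 in the TSA controls against early 2-cell and -0.12 to 0.99 between DMSO groups, and Duxf3 from -0.36 to 0.28 and -0.061 to 0.58 in the last 2. Gm4981 ran from -0.11 to 0.35 with A-485 at early 2-cell.

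The replicate block called 3 members with TSA and changed no other count of members. In zygotes it called 39 genes in all, as did no filter, against 13, all 16 libraries called 26 and fits without 1 library 21 to 56, the most without A-485 replicate 2. Listed targets called there were 2, 4 with the block, 4 without a filter and 3 with all 16 libraries. Mitochondrial scaling called 9221 genes against 5259 between DMSO zygotes and early 2-cell embryos, and 9164 against 4463 in A-485 embryos. Between late 2-cell DMSO groups 273 genes were called, 453 without a filter, 445 with the block, and 524 and 493 without replicates 1 and 2 of the controls of A-485. At the late 2-cell stage the split of higher against lower calls was 2406 to 3824 with A-485 and 3237 to 3247 with TSA, and 1517 to 5558 (mitochondrial scaling) and 4108 to 2384 (total counts) under alternatives. The causes were not tested.

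With every array gene the sums were 32.5 and 15.6 in zygotes and 22.8 and 18.7 at early 2-cell, with DMSO and A-485 (CPM). Within 2.5 kb the late 1-cell lists held 2 and 2 peaks and the early 2-cell A-485 list 1. Within 100 kb both early 2-cell lists held 4. Among the stronger 50% of peaks the late 1-cell lists held 1 and 1 and the early 2-cell lists 0 and 0. Depth limits Gm10807 most, with 6 counts in A-485 zygotes.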
